A study of Mus musculus with 6 samples.

Results

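The 10 genes described here, Trem2, Apoe, Gpnmb, Fabp4, Fabp5, Lpl, Cd36, Spp1, Cd5l and Plin2, are lipid-handling genes that mark lipid-associated macrophages. They were chosen by name as lipid genes of macrophages with results of these same libraries known, several of them selected on log2 differences among the largest rises at day 7, and they are 10 of the 21761 genes in the deposited table. The contrasts of day 7 with day 4 and with day 0 therefore helped to choose the members, and their values there are given as a description with no test. The libraries are RNA-seq of bone marrow cells of male C57BL/6J mice grown outside the animal with Flt3L, a cytokine (Flt3 ligand) that supports growth of dendritic cells (DC) from marrow. The 3 groups of 2 libraries were uncultured marrow (day 0, replicates II and III), the day 4 culture, which the submitters call CMP (replicates I and II), and the day 7 culture, which they call BMDC (replicates III and IV). Cultured cells were grown with 20% of a conditioned supernatant of a transfected SP2/0 line that secretes Flt3L, and per the labels all live cells were taken at days 4 and 7. No label names separate animals or cultures behind the replicates, so a p-value here reflects the spread of these samples alone, and that spread may be technical.

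Macrophages that take up lipid, in adipose tissue, atherosclerotic plaques and the demyelinated brain, share a program of lipid sensing, uptake, transport and storage. Trem2 is a receptor for lipids and lipoproteins that signals through the adaptor Tyrobp, and Cd36 is a scavenger receptor that takes up long-chain fatty acids and oxidised lipoproteins. Lpl splits the triglycerides of lipoproteins, Fabp4 and Fabp5 carry fatty acids in the cytosol, Plin2 coats the droplets in which they are stored, and Apoe carries lipid out of the cell.

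The promoters of 4 members stand for the 3 time courses described further on: Trem2 and Cd5l were low until day 7, Spp1 was higher at each later day and Plin2 had nearly reached its day 7 level at day 4. The sequences are RefSeq's for GRCm38.p6, 250 bases that end just before the annotated start, written 5′ to 3′ on the gene's strand. Trem2 is at chr17:48346151-48346400 on the plus strand, Cd5l at chr3:87357631-87357880 on the plus strand, Spp1 at chr5:104434861-104435110 on the plus strand and Plin2 at chr4:86670060-86670309 on the minus strand. Capitals mark every match, on either strand, to one of the 8 motifs searched: TATAAA (bound by the TATA-binding protein), AGGTCA (the hexamer of nuclear receptors such as the LXR and PPAR families), CACGTG (E-box of the MITF and TFEB family), TCATGTG (M-box core), TGANTCA (AP-1), GAGGAAG (PU.1 and ETS core), CCAAT (bound by NF-Y) and GGGCGG (bound by Sp1).
Trem2: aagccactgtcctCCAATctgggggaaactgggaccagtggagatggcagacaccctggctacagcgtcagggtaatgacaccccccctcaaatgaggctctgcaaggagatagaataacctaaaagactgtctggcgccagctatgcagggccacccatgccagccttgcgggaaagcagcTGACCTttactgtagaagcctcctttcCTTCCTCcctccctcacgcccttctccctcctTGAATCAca
Cd5l: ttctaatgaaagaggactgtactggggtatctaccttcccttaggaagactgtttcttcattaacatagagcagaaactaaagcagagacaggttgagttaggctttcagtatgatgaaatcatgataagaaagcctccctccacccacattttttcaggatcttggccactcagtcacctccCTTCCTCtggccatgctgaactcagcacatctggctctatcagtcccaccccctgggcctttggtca
Spp1: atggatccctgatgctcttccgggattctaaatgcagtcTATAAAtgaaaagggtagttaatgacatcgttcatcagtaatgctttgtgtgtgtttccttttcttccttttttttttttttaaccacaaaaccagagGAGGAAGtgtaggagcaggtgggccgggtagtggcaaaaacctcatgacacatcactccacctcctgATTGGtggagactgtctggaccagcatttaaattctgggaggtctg
Plin2: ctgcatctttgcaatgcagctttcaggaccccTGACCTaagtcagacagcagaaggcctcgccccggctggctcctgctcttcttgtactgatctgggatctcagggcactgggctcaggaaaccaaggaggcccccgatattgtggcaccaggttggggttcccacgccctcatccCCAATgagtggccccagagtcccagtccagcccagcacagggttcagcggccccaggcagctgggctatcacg

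The Trem2 window held CCAAT at 237 bases upstream of the start, AGGTCA on the minus strand at 68, GAGGAAG on the minus strand at 41 and TGANTCA at 9. That last match reads TGAATCA, with a middle A that the searched pattern allows but the stricter AP-1 site, with C or G there, does not. The Cd5l window held GAGGAAG on the minus strand at 67, and the printed Spp1 window held TATAAA at 211, GAGGAAG at 113 and CCAAT on the minus strand at 46. RefSeq gives Spp1 a second start, with the window chr5:104435942-104436191, which held none of the motifs. The first bases after the start were found in a GENCODE transcript for that second start and not for the printed one. The Plin2 window held AGGTCA on the minus strand at 218 and CCAAT at 73. RefSeq's table had windows for 7 of the 10 members, 10 windows in all. AGGTCA was in 3 of these 10 windows (Cd36, Plin2 and Trem2), against 14.02% of the 32851 promoter windows of the table. GAGGAAG was in 3 of the 10 (Cd5l, Spp1 and Trem2), against 10.61% of all windows, and TGANTCA in 1 (Trem2), against 6.749%. CCAAT was in 4 of the 10 (Cd36, Plin2, Spp1 and Trem2) against 33.85% of all windows, TATAAA in 2 (Apoe and Spp1) against 12.37%, and GGGCGG in 1 (Cd36) against 32.74%. CACGTG, in 6.021% of all windows, and TCATGTG, in 3.251%, matched none of the members' windows. A match is a string of letters and no measure of binding in these cells.

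Depth differed by day, with 322837 and 157797 reads in genes for fresh marrow, 1365635 and 3852628 for day 4, and 16149088 and 10951745 for day 7. A floor of 3 reads in a gene 1 kb long came to 9.29 and 19.01 RPKM (reads scaled by gene length and library total) for fresh marrow, 2.20 and 0.779 for day 4, and 0.186 and 0.274 for day 7. The libraries of fresh marrow stood furthest apart (Pearson's r of 0.613 across all genes, which are not independent replicates, against 0.889 at day 4 and 0.978 at day 7). The 95th percentile of 1449 odorant, vomeronasal and trace amine receptor genes, taken as background, was 9.85 and 13.7 RPKM in fresh marrow, 8.71 and 2.51 in day 4 cells, and 0 in both day 7 libraries. The 11 macrophage markers summed to 76.3 and 87.4 RPKM in fresh marrow, 59.5 and 51.7 in day 4 cells, and 3506 and 3859 in day 7 cells. Most of the day 7 sum came from C1qb (1634 and 1813 RPKM) and C1qc (1031 and 1149 RPKM). Between days 4 and 7 limma called 8 of the 11 higher, against 5.85% of all tested genes, and 1 lower, against 6.75%, while Mertk and Marco were not called. The lower one was Vcam1, with 0.956 and 0.437 RPKM at day 7 (log2 difference -3.52, SE 0.45, limma adjusted p = 0.00250). With every library thinned to 157797 reads limma called 4 of the macrophage markers higher and 1 lower. Like the calls of DC markers below, those of macrophage markers were lost when either day 4 library was left out. The 10 DC markers summed to 69.0 and 82.2 RPKM at day 7 against 55.4 and 23.1 at day 4, with Irf8, a factor that macrophages also express, making up 38.8 and 35.6 RPKM at day 7 against 7.50 and 4.78 at day 4. Of the 10, Irf8 and Clec10a were called higher by limma at day 7 against day 4 and 0 were called lower (3 higher and 1 lower at an unadjusted p under 0.05, and 3 higher and 3 lower called by voom), while leaving out a day 4 library, or library III of day 7, left 0 called and leaving out library IV of day 7 left 1. Zbtb46, the factor that marks conventional DCs, was at 0.0288 and 0.0283 RPKM at day 7 against 3.29 and 0.402 at day 4. That difference was not called (limma adjusted p = 0.268), and both day 4 values lay under the 95th percentile of the receptor genes. Batf3, another DC marker, had 3.75 and 6.28 RPKM at day 7 against 1.80 and 0.212 at day 4, and was not called either (limma adjusted p = 0.111). The neutrophil markers summed to 173.9 and 171.4 RPKM at day 7 against 44726 and 32033 at day 4, and to 59024 and 7195 in the fresh marrow libraries II and III.

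Some members are also genes of fat, vessel or bone cells. At day 7, 7 of the 8 adipocyte markers were at 0 in each library and the list summed to 0.352 and 0.741 RPKM, while the 8 endothelial markers summed to 4.19 and 4.64 and the 8 osteoblast or stromal markers to 3.90 and 2.90. The 8 osteoclast markers summed to 94.3 and 93.5 RPKM at day 7, mostly from Acp5 and Ctsk, enzymes that macrophages also make. At day 4 these lists summed to 16.7 and 8.01 RPKM (adipocyte), 27.9 and 20.3 (endothelial), 24.2 and 18.8 (osteoblast or stromal), and 1018 and 568 (osteoclast, mostly Mmp9). The part of each cell type in the members' levels was not tested, and in bulk RNA fewer cells of a type and less RNA per cell cannot be told apart.

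Every member was higher in both day 7 libraries than in any library of day 0 or day 4. The share of all reads in the 10 genes was 0.0310% and 0.0285% in fresh marrow, 0.190% and 0.226% in day 4 cells, and 3.60% and 3.37% in day 7 cells. The exact 95% Clopper-Pearson intervals, which cover counting error only, ran from 0.0208% to 0.0382% over the day 0 libraries, from 0.182% to 0.230% over day 4 and from 3.36% to 3.61% over day 7. All 10 members had both day 7 libraries above both day 4 libraries, a pattern seen in 19.6% of the 19279 tested genes. All 10 likewise had both day 7 libraries above both day 0 libraries, against 19.6% of tested genes, and nothing is read from either count because these contrasts entered the choice. The median log2 difference of the members, on the scale of log2(RPKM + 1), was 6.15 in day 7 against day 4 and 7.20 in day 7 against day 0, while that of all tested genes was -0.81 and -1.14. All 10 members passed the filter of at least 1 RPKM in at least 2 libraries.

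**Figure D1:**
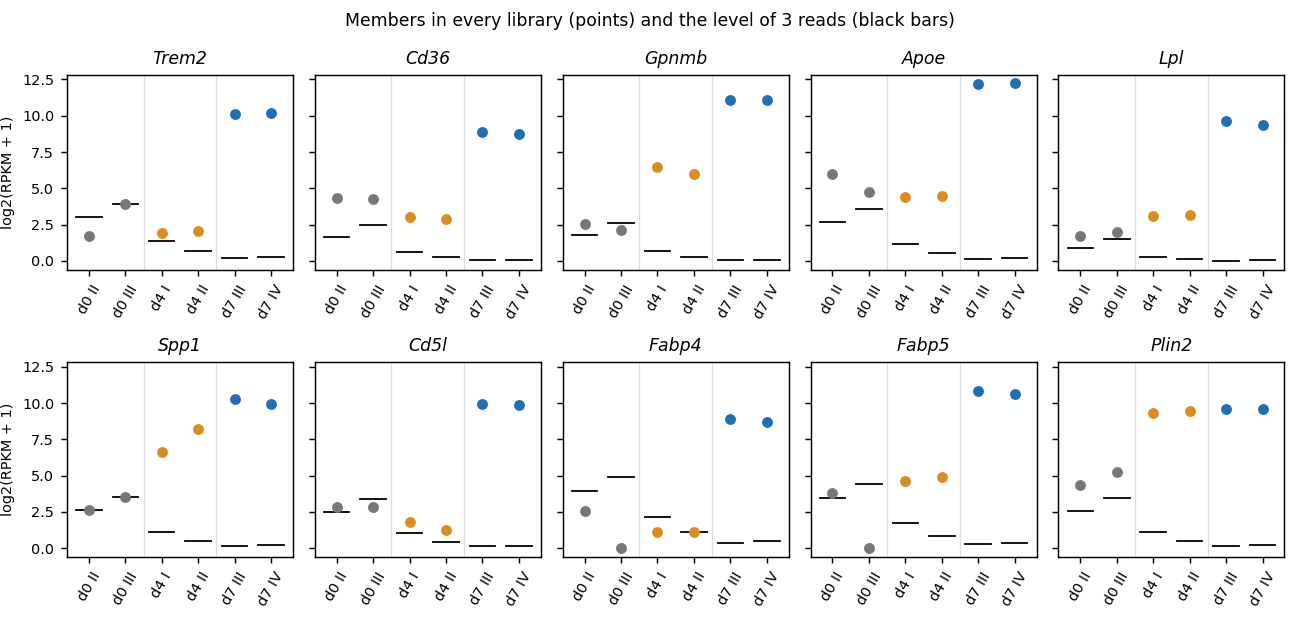
Level of each member in the 6 libraries as log2(RPKM + 1), a log scale on the y axis, with day 0 in grey, day 4 in orange and day 7 in blue. Each black bar is the level that 3 reads of that gene give in that library; many day 0 points lie at or under their bar, and every day 7 point lies far above it.

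Of the receptors and membrane proteins, Trem2 was low before day 7, with too few reads at day 0 to show absence. Trem2 stood at 2.33 and 14.3 RPKM in fresh marrow, where these values rested on 1 and 3 reads, at 2.76 and 3.13 RPKM in day 4 cells, and at 1123 and 1188 RPKM in day 7 cells. The day 7 libraries were alike and stood far above the other 4, while the day 0 and day 4 libraries overlapped. The difference in log2(RPKM + 1) was 8.20 (SE 0.64) for day 7 against day 4 and 7.34 for day 7 against day 0. The day 4 value of library I lay under the 95th percentile of the receptor background and that of library II a little above it, so the size of the difference from day 4 is not well measured. Only Cd5l among the members had a larger difference between days 7 and 4, and Trem2 ranked 4 among all tested genes in that difference.

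Cd36 was low but above the background of receptor genes in both fresh marrow libraries. It had 19.2 and 18.2 RPKM in fresh marrow, 6.99 and 6.45 in day 4 cells, and 475 and 437 in day 7 cells. Replicates lay close together at each day, and day 4 was the lowest of the 3 days without overlap. The log2 difference was 5.89 (SE 0.34) for day 7 against day 4 and 4.54 for day 7 against day 0.

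Gpnmb, a membrane glycoprotein of endosomes and lysosomes that is abundant in lipid-laden macrophages, was higher at each later day. It had 4.89 and 3.34 RPKM in fresh marrow, from 6 and 2 reads, then 86.2 and 62.0 in day 4 cells and 2198 and 2184 in day 7 cells. The 3 days did not overlap, and the day 7 libraries were nearly equal. The log2 difference was 4.89 (SE 0.39) for day 7 against day 4 and 8.76 for day 7 against day 0. Gpnmb per unit length stood at 1.96 and 1.84 times Trem2 at day 7, against 31.3 and 19.8 times Trem2 at day 4.

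Among the secreted members Apoe, the lipoprotein component that carries cholesterol out of macrophages, had the highest level of all 10 at day 7. Its levels were 63.7 and 26.1 RPKM in fresh marrow, 20.7 and 21.0 in day 4 cells, and 4730 and 4795 in day 7 cells. Day 4 was a little below the lower day 0 library, and both day 7 libraries were far above all 4 earlier ones. By mean level it ranked 6 among all genes at day 7, against 2650 at day 4. The log2 difference was 7.77 (SE 0.50) for day 7 against day 4 and 6.83 for day 7 against day 0.

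Lpl, the lipase, was near the floor in fresh marrow with 2.36 and 3.01 RPKM on 8 and 5 reads. Day 4 cells had 7.66 and 7.95 RPKM, and day 7 cells had 803 and 664. The 3 days were separate, with the wider gap between days 4 and 7, where the log2 difference was 6.38 (SE 0.35). The difference was 7.64 for day 7 against day 0.

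Spp1, or osteopontin, a secreted phosphoprotein that binds integrins and CD44, was the member whose day 4 libraries agreed least. It had 5.14 and 10.5 RPKM in fresh marrow, each from 3 reads, 97.6 and 295 in day 4 cells, and 1240 and 996 in day 7 cells. The day 4 libraries differed by a factor of 3.03, yet both lay above day 0 and below day 7. The log2 difference was 2.70 (SE 0.59) for day 7 against day 4 and 7.05 for day 7 against day 0. Without day 4 library I the first of these was 1.91, and without day 4 library II it was 3.50. Ibsp, the bone sialoprotein gene that osteoblasts express with Spp1, had 0.127 and 0 RPKM at day 7.

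Cd5l, a scavenger protein secreted by tissue macrophages, was the lowest of the secreted members at day 4. It had 6.08 and 6.22 RPKM in fresh marrow, from 4 and 2 reads, 2.52 and 1.40 in day 4 cells, and 963 and 952 in day 7 cells. The day 7 libraries were nearly equal and the day 4 libraries were the lowest. The log2 difference of 8.37 (SE 0.37) for day 7 against day 4 ranked 3 among all tested genes, and that for day 7 against day 0 was 7.07. Both day 4 values lay under the 95th percentile of the receptor background, so the size of the difference from day 4 is not well measured.

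The 2 fatty acid carriers stood at different levels at day 4. Fabp4 had 4.83 and 0 RPKM in fresh marrow, from 1 read and none, 1.14 and 1.21 in day 4 cells, from 1 and 3 reads, and 469 and 408 in day 7 cells. Before day 7 it was at or under the floor of 3 reads in all 4 libraries, so that 0 of 157797 reads in day 0 library III allows up to 29.7 RPKM. The pooled ratio of day 7 to day 4 was 372, with an exact 95% interval of 145 to 1364 that covers counting error only, although both day 4 values lay under the receptor background. That of day 7 to day 0 rested on a single day 0 read and was 137, with an interval of 24.6 to 5409.

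Fabp5 was already measurable at day 4. It had 13.3 and 0 RPKM in fresh marrow, from 4 reads and none, 24.4 and 29.2 in day 4 cells, and 1804 and 1553 in day 7 cells. The day 4 libraries lay above both day 0 libraries, and day 7 lay far above both. The log2 difference was 5.92 (SE 1.01) for day 7 against day 4 and 8.79 for day 7 against day 0, the largest of any tested gene in the second contrast. That second value was 6.87 without day 0 library III, in which Fabp5 had no read, and 10.71 without library II. The ratio of Fabp5 to Fabp4, per unit length, was 3.85 and 3.81 at day 7 against 21.3 and 24.1 at day 4, where Fabp4 had 1 and 3 reads.

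Plin2, the droplet coat protein, had most of its difference at the first step. It had 19.7 and 36.9 RPKM in fresh marrow, 645 and 691 in day 4 cells, and 772 and 769 in day 7 cells. The day 7 libraries were above day 4, but by a pooled ratio of 1.13 with a counting interval of 1.11 to 1.16. The log2 difference was 0.21 (SE 0.48) for day 7 against day 4, smaller than its standard error, and 4.78 for day 7 against day 0. The first value was -0.66 after quantile normalization and -0.0267 when all libraries were thinned to 157797 reads, so its sign depends on the scaling and on the reads drawn.

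The order of days 7 and 4 was also compared at equal depth. With every library thinned at random to 157797 reads, 9 of the 10 members had both day 7 libraries above both day 4 libraries, against 16.3% of the 17320 genes tested after thinning, a count from which nothing is read because this contrast entered the choice. The exception was Plin2, at 746 and 678 RPKM in day 7 cells against 688 and 762 in day 4 cells. Trem2 then had 1121 and 1327 RPKM in day 7 cells against 4.77 in each day 4 library, and Fabp4 had 366 and 514 against 0 in both. Cd5l had 871 and 968 RPKM in day 7 cells against 6.22 and 3.11 in day 4 cells. Both day 4 libraries stayed above both day 0 libraries for 5 members after thinning, against 15% of those genes.

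At day 7 the members ran, from high to low by mean RPKM, Apoe, Gpnmb, Fabp5, Trem2, Spp1, Cd5l, Plin2, Lpl, Cd36 and Fabp4. In 3 places neighbours in that order overlapped between libraries: Trem2 with Spp1, Plin2 with Lpl, and Cd36 with Fabp4. The lowest of the 10, Fabp4, still ranked 223 among all genes at day 7. The day 7 libraries of a member differed by a factor of 1.00 (Plin2) to 1.25 (Spp1). At day 4 the order was Plin2, Spp1, Gpnmb, Fabp5, Apoe, Lpl, Cd36, Trem2, Cd5l and Fabp4. Only Plin2 and Spp1 passed 100 RPKM in a day 4 library, and the mean level of Plin2 ranked 119 at day 7 and 66 at day 4.

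Set against the receptor background, 4 members in each day 0 library exceeded the 95th percentile, with Cd36, Apoe and Plin2 common to both libraries. The count was 5 and 8 members in the day 4 libraries I and II, and all 10 in each day 7 library. Members with more than 3 reads numbered 7 and 4 in fresh marrow, 9 in each day 4 library, and all 10 in each day 7 library. A member under that percentile in a library was not told apart from background by this measure, which sets 1 RPKM level for genes of every length. Long genes can lie under it on many reads, as Lpl did in day 4 library I, with 110 reads.

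The first step, day 4 against day 0, was not used to choose the members, although it shares its libraries with the contrasts that were. Plin2, Gpnmb and Spp1 rose. Over the same step the 7 erythroid markers summed to 1671 and 1822 RPKM at day 4 against 31920 and 19812 at day 0, and the 6 platelet markers to 33.7 and 424 at day 4 against 30.7 and 44.5 at day 0, so that the day 4 libraries differed in the same sense as for Spp1. Most of the 424 came from Pf4 (279 RPKM) and Ppbp (111), while Vwf had 2.77 and 3.09 at day 4. Pf4 was still at 199 and 153 RPKM at day 7. The part of erythroid cells and platelets in the members' values was not tested. The differences in log2(RPKM + 1) were 4.58 (SE 0.48) for Plin2, 3.87 (SE 0.39) for Gpnmb and 4.35 (SE 0.59) for Spp1. Both day 0 values of Gpnmb and of Spp1 lay under the receptor background, so the size of their differences is not well measured. The adjusted p-values of limma, over all 19279 tested genes, were 0.00721 for Plin2, 0.00721 for Gpnmb and 0.0120 for Spp1, and both day 4 libraries were above both day 0 libraries for each. So 3 of 10 members were called higher, against 3.66% of tested genes, and 0 of 10 were called lower by limma, against 1.92%. A choice with rises over day 0 known favours low day 0 values, so the counts at this step are a description only. All 10 members averaged at least 5 RPKM, which 8153 genes did in all, so the shares of tested genes are no matched background. At an unadjusted p under 0.05 limma gave 5 members higher, with Fabp5 and Lpl added, against 11.2% of tested genes, and 2 lower, Cd36 and Cd5l, against 14.2%. On whole reads limma's voom called 2 higher and 0 lower. The call of these 3 genes was lost when either day 4 library was left out or when limma weighted the libraries, with 0 members called higher in each case and 4 at an unadjusted p under 0.05.

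The other 7 members were not called in day 4 against day 0. Lpl differed by 1.26 (SE 0.35, adjusted p = 0.0762 in limma) and Fabp5 by 2.87 (SE 1.01, adjusted p = 0.131 in limma). Cd36 differed by -1.35 (SE 0.34, limma adjusted p = 0.0585) and Cd5l by -1.30 (SE 0.37, limma adjusted p = 0.0780). Apoe differed by -0.94 (SE 0.50, limma adjusted p = 0.278), Trem2 by -0.86 (SE 0.64, limma adjusted p = 0.433) and Fabp4 by -0.15 (SE 0.73, limma adjusted p = 0.922). The day 4 libraries lay wholly above day 0 for 5 members, against 17.9% of tested genes, and wholly below for 3 (Cd36, Apoe and Cd5l), against 33.3%. With library II of day 0 left out Trem2 stood at -1.96 and Fabp4 at 1.12, and with library III left out they stood at 0.24 and -1.42, so the sign of each depends on which day 0 library is used. A small difference at this depth does not show that a level stayed the same.

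**Figure D2:**
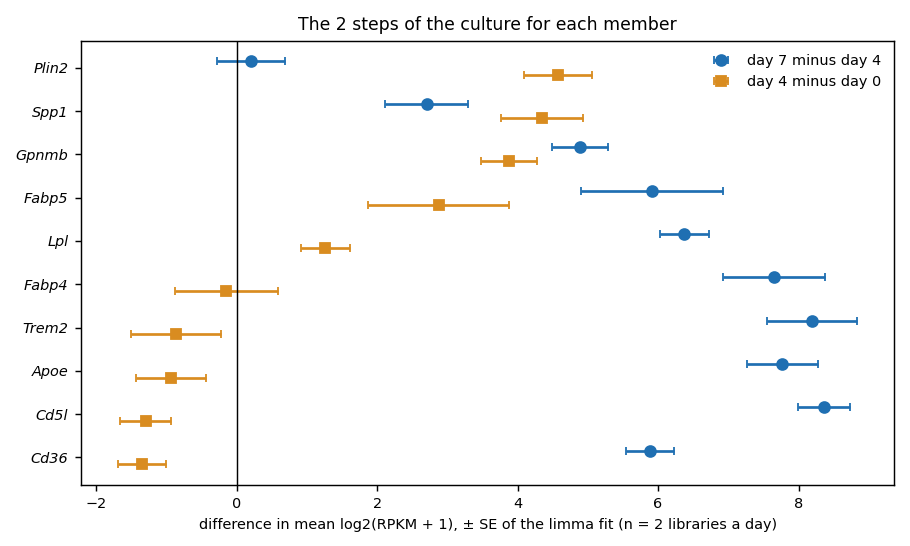
Difference in mean log2(RPKM + 1) for each member at the step from day 4 to day 7 (blue circles) and from day 0 to day 4 (orange squares), with bars of ± 1 standard error of the limma fit and 2 libraries a day. Plin2 sits at 0.21 for the later step and 4.58 for the earlier one, while Trem2, Apoe, Cd5l, Cd36 and Fabp4 lie at 5.89 to 8.37 and at -1.35 to -0.15.

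The share of the log2 difference between day 7 and day 0 that was present at day 4 describes the timing of the members. It was 95.7% for Plin2, 61.7% for Spp1, 44.2% for Gpnmb, 32.7% for Fabp5 and 16.5% for Lpl. For Spp1, Gpnmb and Lpl both day 0 values lay under the 95th percentile of the receptor background, as did Lpl in day 4 library I, there on 110 reads. The starting level behind these shares is therefore not well measured. The place of Fabp5 is not settled, since its share rested on 4 and 0 day 0 reads and was 13.9% without day 0 library III, below Lpl, and 44.7% without library II, close to Gpnmb. For Spp1 it was 72.9% without day 4 library I and 50.4% without library II. For Fabp4, Trem2, Apoe, Cd5l and Cd36 the day 4 mean was below that of day 0. Plin2, Spp1 and Gpnmb, the members called higher at the first step, are a droplet coat, a secreted ligand and a membrane glycoprotein. Gpnmb still had the larger log2 difference at the second step, 4.89 against 3.87 at the first. The receptors Trem2 and Cd36 and the carrier Apoe had no higher mean at day 4 than at day 0.

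Since several members were chosen for their rise at day 7, high correlations between them across libraries are partly fixed by that choice, and the values that follow are a description only. Pearson's r of log2(RPKM + 1) over the 36 pairs without Plin2 was 0.625 to 0.996 with a median of 0.933, and over the 10 pairs of Trem2, Cd36, Apoe, Cd5l and Fabp4 it was 0.928 to 0.996. The 9 pairs with Plin2 had an r of 0.331 to 0.929. These are descriptions of 6 libraries that differ in depth by day. Between 174 (Plin2) and 390 (Lpl) of the 7672 genes averaging 5 RPKM or more had an r of at least 0.95 with a given member.

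The genes whose course was most like a member's were named by the smallest distance between centred log2(RPKM + 1) values over the 6 libraries. For Trem2 they were Mfge8 (r = 0.995), a bridging protein in the uptake of dying cells, the macrophage elastase Mmp12 (r = 0.990) and Ms4a7 (r = 0.989). Mfge8 had 219 and 260 RPKM at day 7, against 1.20 and 1.19 at day 4. Mmp12 was also the nearest gene to Apoe (r = 0.982) and to Cd5l (r = 0.996), and had 457 and 380 RPKM at day 7 against 2.12 and 0.689 at day 4. Lpl and Fabp4 lay nearest to the complement genes C1qa (r = 0.994) and C1qc (r = 0.993), which macrophages make in quantity.

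Cd36 lay nearest to Lgals3bp (r = 0.996), a secreted galectin ligand, with 327 and 334 RPKM at day 7 against 5.40 and 2.99 at day 4. Fabp5 lay nearest to Lgals1 (r = 0.990), the gene of galectin 1. For Spp1 the nearest gene was the chemokine Ccl4 (r = 0.990), with 731 and 629 RPKM at day 7 against 34.3 and 215 at day 4, and its day 4 libraries differed in the same sense as those of Spp1. For Gpnmb it was Rpph1 (r = 0.988), the RNA of ribonuclease P, and the third nearest was Hilpda (r = 0.990), which inhibits lipolysis at lipid droplets. For Plin2 it was Srxn1 (r = 0.997), the sulfiredoxin gene of the oxidative stress response, with 133 and 122 RPKM at day 7 against 92.7 and 106 at day 4.

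Other genes of the same processes were followed through 9 lists by role that hold no member, 201 tested genes of 205 found and 209 listed. The lists were drawn up with earlier results of these data known, so their counts are a description only. A mean of at least 5 RPKM was reached by 156 list genes and by 8153 genes in all. List genes were thus more often well expressed than the 19279 tested genes, and the shares of tested genes given here are no matched background. Between day 4 and day 7, 44 of the 201 rose, against 5.85% of tested genes, and 18 fell, against 6.75% (limma, adjusted p under 0.05 over 19279 genes). Day 7 against day 0 gave 77 higher, against 11.3% of tested genes, and 30 lower, against 29.3%, and day 4 against day 0 gave 33 higher, against 3.66%, and 3 lower, against 1.92%. The median log2 difference over the lists was 0.12 in day 7 against day 4 and 0.26 in day 4 against day 0, where all tested genes had -0.81 and -0.40. After quantile normalization the split was 21 higher and 14 lower in day 7 against day 4, and 56 higher and 8 lower in day 7 against day 0. With day 4 library I or II left out limma called 0 list genes in day 7 against day 4, with 51 or 53 higher and 29 or 37 lower at an unadjusted p under 0.05, and 0 in day 4 against day 0, with 51 or 50 higher and 23 or 6 lower. Without day 0 library II or III the counts in day 7 against day 4 were 71 or 70 higher, each with 31 lower, and without day 7 library III or IV they were 26 or 22 higher. In day 7 against day 0 they were 48 or 45 higher and 9 or 6 lower without day 7 library III or IV, and in day 4 against day 0 they were 59 or 54 higher without day 0 library II or III, and 14 lower without II.

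**Figure D3:**
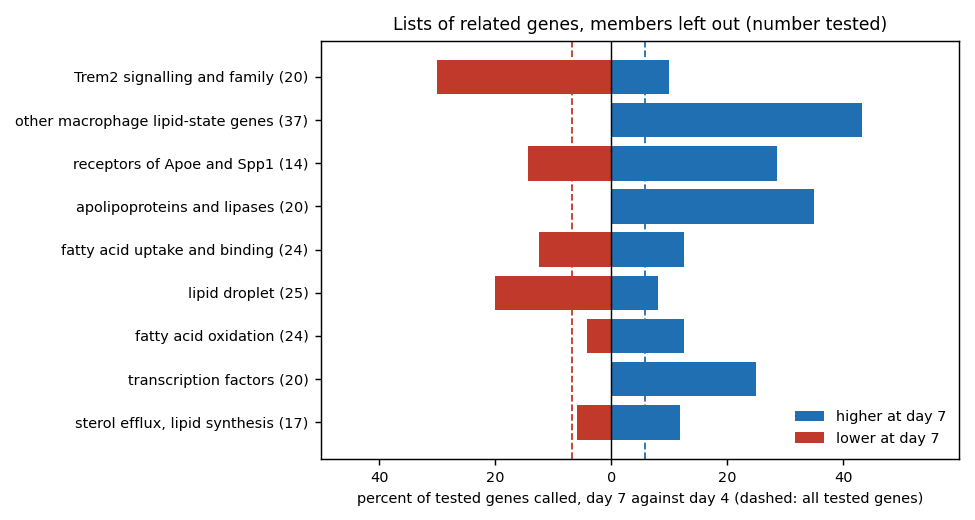
Percent of the tested genes in each list by role, with the members left out, that limma called higher (blue, to the right) or lower (red, to the left) in day 7 against day 4; dashed lines mark the percent over all tested genes. The list of other macrophage lipid-state genes reaches furthest to the right, and the Trem2 signalling and lipid droplet lists furthest to the left.

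Trem2 belongs to a family of receptors that share an adaptor. Of 20 tested signalling partners and relatives, 2 rose between days 4 and 7 (Lat2 and Ms4a6d) and 6 fell, among them Trem1 and Trem3, receptors of neutrophils and monocytes that use the same adaptor. Trem1 had 1.65 and 0.0304 RPKM at day 7 against 50.7 and 81.5 at day 4 (-5.30, SE 0.60, limma adjusted p = 0.00139). Trem3 had 1.56 and 0.551 RPKM at day 7 against 232 and 257 at day 4 (-6.94, SE 0.61, limma adjusted p = 0.000506). Trem2, the lowest of these 3 genes in both day 4 libraries, was the highest in both day 7 libraries. The neutrophil markers were lower over the same step, and their part in Trem1 and Trem3 was not tested. Tyrobp, the adaptor of Trem2, had 3668 and 3751 RPKM at day 7 against 1461 and 1033 at day 4 and was not called (1.59, SE 0.80, limma adjusted p = 0.220). Trem2 was at 0.306 and 0.317 of the level of Tyrobp per unit length at day 7, against 0.00189 and 0.00303 at day 4.

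**Figure D4:**
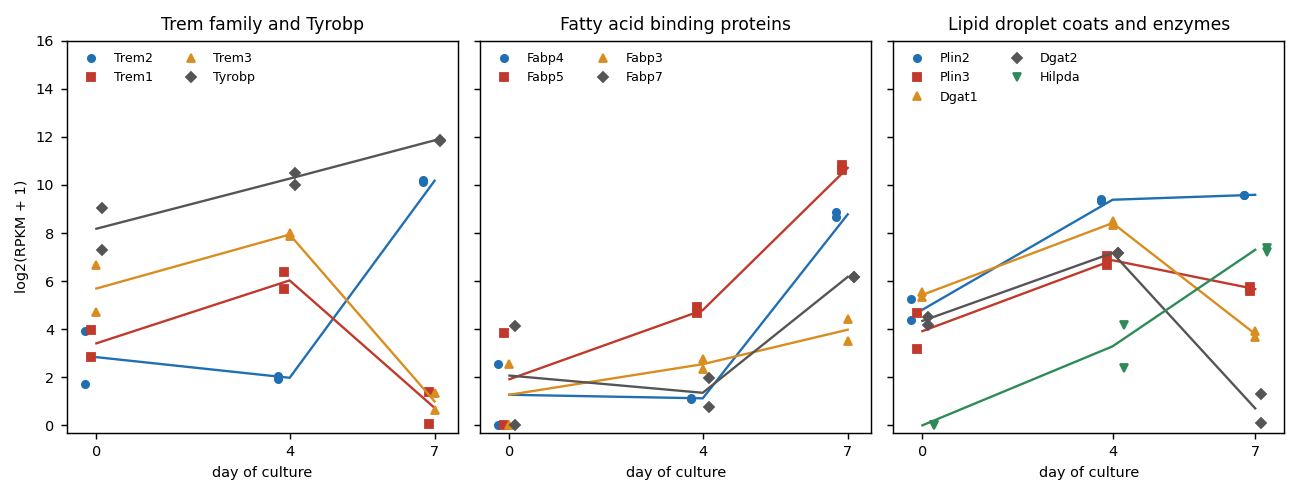
Level as log2(RPKM + 1) on a log scale at days 0, 4 and 7 for the Trem family with Tyrobp, the fatty acid binding proteins, and droplet coats and enzymes; each point is a library and lines join the day means. Trem2 crosses Trem1 and Trem3 between days 4 and 7, Fabp4 and Fabp5 end far above Fabp3, and Plin2 stays high while Dgat1 and Dgat2 are low at day 7.

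Beside Gpnmb and Spp1, 37 other genes reported as high in lipid-associated macrophages or plaque-associated microglia of mice were tested. Of these 37 genes, 16 rose between days 4 and 7, 21 were not called, and 14 rose in day 4 against day 0. The lysosomal protease Ctss had 3842 and 4057 RPKM at day 7 against 58.8 and 31.0 at day 4 (6.50, SE 0.47, limma adjusted p = 0.000279). Ctsd, another lysosomal protease, rose at the first step (4.34, SE 0.70, limma adjusted p = 0.0178), as Gpnmb did. Of 14 tested receptors for the secreted members, 4 rose between days 4 and 7 (Lrp1, Itgav, Itgb5 and Sdc4) and 2 fell (Sorl1 and Itgb3). Lrp1, which takes up Apoe-rich lipoproteins, had 39.9 RPKM in both day 7 libraries against 4.19 and 1.76 at day 4 (3.43, SE 0.51, limma adjusted p = 0.00460). Of the integrin chains that bind Spp1 together with Itgav, Itgb5 rose (4.96, SE 0.51, limma adjusted p = 0.000917) and Itgb3 fell (-2.58, SE 0.58, limma adjusted p = 0.0246).

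Lpl acts with a cofactor and, on vessel walls, an anchor protein. Of 20 tested apolipoproteins, lipases and cofactors, 7 rose between days 4 and 7 and the other 13 were not called. Apoc2, which activates Lpl, had 171 and 212 RPKM at day 7 against 6.72 and 2.38 at day 4 (5.23, SE 0.51, limma adjusted p = 0.000753), while Gpihbp1, the endothelial anchor of Lpl, was at 0 in both day 7 libraries. Lpl per unit length was at 0.958 and 0.806 of Lipa, the acid lipase of lysosomes, at day 7, against 0.112 and 0.0793 at day 4. Lipa itself rose at both steps, by 3.31 (SE 0.54, limma adjusted p = 0.00671) at the second and 3.99 (SE 0.54, limma adjusted p = 0.0120) at the first.

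Fabp4 and Fabp5 were the highest of their family at day 7. Fabp7 rose to 71.0 and 71.4 RPKM at day 7 against 2.88 and 0.681 at day 4 (4.82, SE 1.13, limma adjusted p = 0.0291), Fabp3 had 10.4 and 20.7 RPKM at day 7 and was not called, and Fabp1, Fabp2, Fabp6 and Fabp12 were at or under 0.378 RPKM there. Msr1, a scavenger receptor that like Cd36 takes up modified lipoproteins, rose to 65.5 and 55.7 RPKM at day 7 against 7.69 and 1.75 at day 4 (3.65, SE 0.65, limma adjusted p = 0.00992). In the list of uptake and binding as a whole, 3 of 24 tested genes rose and 3 fell.

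Plin2 rose at the first step with other genes of the lipid droplet, 9 of 25 tested, among them Plin3, Dgat1, Dgat2 and Hilpda. Between days 4 and 7, 2 of the 25 rose (Hilpda and Bscl2) and 5 fell (Dgat1, Dgat2, Agpat9, G0s2 and Abhd5). Dgat1 and Dgat2, which make triglyceride, differed by -4.62 (SE 0.36, limma adjusted p = 0.000325) and -6.47 (SE 0.47, limma adjusted p = 0.000279), and Dgat2 had 1.46 and 0.0811 RPKM at day 7 against 142 and 145 at day 4. The neutrophil markers were lower over that step too, and their part was not tested. Plin3, another coat protein, had a level per unit length of 1.25 and 0.215 times that of Plin2 in fresh marrow, 0.157 and 0.192 times in day 4 cells, and 0.0603 and 0.0696 times in day 7 cells.

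Of 20 tested transcription factors of lipid metabolism and of macrophages, 5 rose between days 4 and 7 and the other 15 were not called. Nr1h3, the gene of LXR alpha, of which Apoe is a known target, had 37.6 and 30.7 RPKM at day 7 against 4.01 and 1.07 at day 4 (3.44, SE 0.66, limma adjusted p = 0.0134). Pparg, known to activate Cd36 and Fabp4, had 12.3 and 8.23 RPKM at day 7 against 2.64 and 1.04 at day 4 and was not called (2.03, SE 0.79, limma adjusted p = 0.133). Of 17 tested genes of sterol efflux and lipid synthesis, the exporters Abcg1 (3.84, SE 0.41, limma adjusted p = 0.00106) and Abca1 (2.47, SE 0.59, limma adjusted p = 0.0314) rose and Abca7 fell (-3.57, SE 0.40, limma adjusted p = 0.00137). The other 14 were not called between days 4 and 7. In day 7 against day 0 limma called 1 of the 17 higher, against 11.3% of tested genes, and 5 lower, against 29.3%. Of 24 tested genes of fatty acid oxidation 3 rose (Acadm, Acads and Hadhb) and 1 fell (Acadvl).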

How the data were processed

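RNA-seq was run on 6 libraries, 2 each of day 0, day 4 and day 7. The authors' deposited table gives RPKM and gene length for 21761 genes, per the file headers. Per the submitters' processing notes, TopHat2 2.0.13, SAMtools 1.1 and the build mm9 were used, with no role stated. Not given in the sources used here are the read counter, annotation and strand setting, so reads of overlapping genes cannot be told apart. RefSeq's GRCm38.p6 table, a different build, was used for promoters and gene order alone.

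RPKM times length gave back whole reads, within 6.88e-05 of a read, and thus library totals. Values were used as log2(RPKM + 1), which understates changes of low genes. Genes with at least 1 RPKM in at least 2 libraries were tested with limma 3.58.1 in R 4.3.3 (a mean per day, eBayes with trend, two-sided, Benjamini-Hochberg over 19279 genes, called at adjusted p under 0.05), with 3 residual and a median of 5.22 prior degrees of freedom. An exact permutation of 2 against 2 libraries cannot go below p = 0.333.

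The members and the gene lists were chosen with earlier results of these data known. Open to naming from each list were its 3 genes with the highest mean, up to 2 called higher and 2 called lower with the smallest adjusted p in day 7 against day 4, 1 in each direction in day 4 against day 0, and a few fixed by name. Not all of these were named. Among those left out were the abundant Lyz2, Fth1, Cd44 and Itgb1, not called in day 7 against day 4. Ccl3 and Adam17, called higher in day 4 against day 0, and Itga4, called lower there, were left out too. For each member the 3 genes nearest in course could be named. Genes that spell out a small count, such as Itgav and Sdc4, were named after their values were seen. Alternatives were other pseudocounts (0.1 and 5), filters, scalings, weights, voom, thinning and leaving out each library. The values at equal depth given per member, and the timing shares, marker calls and neighbour calls with a library left out, were added after seeing the data.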

Additional observations from a re-analysis of the deposited data

How the results depend on the processing

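The 9 members besides Plin2 kept a positive difference in day 7 against day 4 in each of the 16 alternatives, the smallest being 1.91 for Spp1. Values that changed sign were Plin2 in day 7 against day 4 (-0.66 with quantile normalization, -0.0267 with thinning), Trem2 in day 4 against day 0 (0.56 with thinning, -1.96 to 0.24 with 1 library left out) and Fabp4 in that contrast (0.86 with a pseudocount of 0.1, -1.42 to 1.12 with 1 library left out). List genes called higher and lower in day 7 against day 4 numbered 44 and 18, against 21 higher with quantile normalization, 12 and 10 with thinning, 74 and 53 with voom, and 0 to 71 and 0 to 31 when 1 library was left out. In day 7 against day 0 they numbered 77 and 30, against 44 and 14 with thinning, 15 lower with a mean of at least 5 RPKM, 8 lower with quantile normalization, and 45 to 86 and 6 to 38 when 1 library was left out. In day 4 against day 0 they numbered 33 and 3, against 9 and 1 without a trend, 0 and 0 with library weights, 21 and 1 with a pseudocount of 0.1, 20 higher with thinning, 10 and 0 with voom, and 0 to 59 and 0 to 14 when 1 library was left out. Members called in that contrast numbered 3 higher and 0 lower, against 0 higher with library weights, 2 lower with a mean of at least 5 RPKM, 1 lower with quantile normalization, and 0 to 5 higher and 0 to 4 lower when 1 library was left out. The cause of these shifts was not tested. With 1 library left out, the lone library of that day is assumed to vary like the others. Quantile normalization moved the median log2 difference of all tested genes by 0.85 between days 7 and 4, 1.13 between days 7 and 0, and 0.36 between days 4 and 0, and median-ratio scaling moved it by 0.11 to 0.18. Depth limits day 0 most, where 3 reads of a member came to between 0.884 and 29.7 RPKM. No paired analysis was possible because days 0 and 4 share replicate II alone, days 0 and 7 share III alone and days 4 and 7 share none.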

Other observations

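The genes next to the members on the chromosome were taken from RefSeq's gene order by a rule chosen after the data were seen. Of 20 neighbouring protein-coding genes, 19 were tested in day 7 against day 4, and 2 were called higher by limma, against 5.85% of all tested genes, 1 lower, against 6.75%, and 16 not at all. Tomm40, a mitochondrial import channel gene beside Apoe, had 11.0 and 15.8 RPKM at day 7 against 3.63 and 3.74 RPKM at day 4 (1.60, SE 0.43, limma adjusted p = 0.0448). Malsu1, beside Gpnmb, had 44.8 and 53.5 RPKM at day 7 against 12.1 and 3.64 RPKM at day 4 (2.68, SE 0.53, limma adjusted p = 0.0144). Apoc1, the apolipoprotein gene on the other side of Apoe, had 1.61 and 0 RPKM at day 7 against 2.38 and 0.421 at day 4 and was not called (limma adjusted p = 0.645). The carriers Fabp9 and Fabp12, on either side of Fabp4, were at 0 in both day 7 libraries. Pag1, beside Fabp5, had 1.85 RPKM in each day 7 library against 24.2 and 24.3 RPKM at day 4 (-3.15, SE 0.44, limma adjusted p = 0.00357). With day 4 library I or II left out limma called 0 of these neighbours, with 6 or 8 at an unadjusted p under 0.05. Without day 0 library II or III it called 2 higher and 4 lower, without day 7 library III 1 higher and 1 lower, without day 7 library IV 0 higher and 1 lower, and on whole reads voom called 2 higher and 9 lower.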
